A study of Mus musculus with 34 samples.

Results

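Spinal cord of wild-type mice 1 day after spinal cord injury (WT day 1) was compared with cord of wild-type mice after sham surgery (WT sham), the arrays being chosen by their titles. The comparison uses 9 of the 34 arrays of the series, 5 from WT day 1 cord and 4 from WT sham cord. The series measured RNA from spinal cord of wild-type mice and of mice labelled KO, which the series title calls trkB.T1 null, that is, lacking the truncated T1 form of the BDNF receptor TrkB. Cord was taken after sham surgery, in which the cord stayed intact, or 1, 3 or 7 days after injury, and each RNA was put on an Affymetrix mouse expression array. WT day 1 cord came from wild-type mice with spinal cord injury and a time point of 1 day. WT sham cord came from wild-type mice with sham surgery and no injury. 4 further groups are used here: WT day 3 and WT day 7 cord, each with 4 arrays, and KO day 1 and KO sham cord, with 8 arrays together. The injury model, its level and severity, and the strain, sex and age of the mice are not given in the sources used here. Whether arrays of 1 group came from different animals is not stated either. The p-values set each difference against the scatter within groups over all 34 arrays, and may therefore not extend to other animals.

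A contusion or cut of the cord kills cells at the site within hours, opens the vessels and lets plasma and blood cells in. Neurons, glia and vessel cells that survive start a common early programme. Growth factor and cytokine receptors switch on immediate early genes, and neutrophils and then monocytes arrive. Genes of mature function, such as those for synaptic transmission, ion buffering or lipid synthesis, are often turned down in damaged tissue, and phagocytic clearance and scar formation follow over days to weeks.

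Protein folding in the endoplasmic reticulum (ER) is one branch of this programme whose control sequences are well known. When unfolded proteins load the ER, the factors ATF6 and XBP1 bind with NF-Y to the ER stress response element (ERSE), which reads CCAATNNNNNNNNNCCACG. It was searched for on both strands in the 250 bases before each gene's start in RefSeq promoters (GRCm38.p6). It was present in 8 of 22 genes of the ER folding list with a promoter entry (36.4%), in 12 of 9688 tested genes (0.124%) and in 35 of 27025 promoters in all (0.13%). A match describes the letters and is not evidence of binding. 4 promoters are shown, since their genes span the range of responses from a clear rise to no measured change, with the ERSE in capitals (in Creld2 it lies on the opposite strand, so its complement is read). Creld2 is at chr15:88819475-88819583 (plus strand), Pdia6 at chr12:17266446-17266554 (plus), Hspa5 at chr2:34771980-34772088 (plus) and Canx at chr11:50325755-50325863 (minus).
Creld2: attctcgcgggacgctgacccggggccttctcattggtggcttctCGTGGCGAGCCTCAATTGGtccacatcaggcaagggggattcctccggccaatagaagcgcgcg
Pdia6: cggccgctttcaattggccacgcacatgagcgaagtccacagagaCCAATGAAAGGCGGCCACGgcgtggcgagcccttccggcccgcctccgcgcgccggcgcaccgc
Hspa5: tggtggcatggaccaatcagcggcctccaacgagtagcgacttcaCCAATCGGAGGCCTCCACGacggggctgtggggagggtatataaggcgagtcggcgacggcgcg
Canx: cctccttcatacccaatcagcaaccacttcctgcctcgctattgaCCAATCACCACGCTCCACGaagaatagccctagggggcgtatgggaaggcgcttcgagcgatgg

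The deposited values are log2 intensities after GCRMA, so a difference of 1 is a 2-fold change, and values are relative to the rest of the same array. Tests used limma across all 34 arrays, with Benjamini-Hochberg adjusted p under 0.05 over 11993 tested genes, and "passed" below means this. Values are given as log2 difference, WT day 1 minus WT sham, with the standard error (SE). Creld2, an ER protein of the disulfide isomerase type, had log2 values of 9.97, 9.44, 9.49, 10.001 and 9.10 in WT day 1 cord, against 7.91, 7.56, 7.99 and 8.05 in WT sham cord, a difference of 1.72 ± 0.20 (3.3-fold, adjusted p = 4.17e-08). Pdia6, a protein disulfide isomerase, had 10.26, 9.82, 9.91, 10.05 and 9.83 in WT day 1 cord, against 8.87, 8.55, 8.97 and 8.91 in WT sham cord, a difference of 1.15 ± 0.15 (2.21-fold, adjusted p = 1.8e-07). Hspa5, the main ER chaperone BiP, had 13.96, 13.82, 13.85, 14.08 and 13.62 in WT day 1 cord, against 12.88, 12.71, 12.89 and 12.71 in WT sham cord, a difference of 1.07 ± 0.10 (2.1-fold, adjusted p = 7.67e-10). In all 3 genes every WT day 1 array lay above every WT sham array, as it did in 23.9% of all tested genes (29.3% lay wholly below). Canx, the membrane-bound lectin chaperone calnexin, had 13.13, 13.19, 13.17, 13.31 and 13.06 in WT day 1 cord, against 13.20, 13.18, 13.04 and 13.17 in WT sham cord. Its groups overlapped, and its difference of 0.02 ± 0.05 did not pass (95% interval -0.08 to 0.13, adjusted p = 0.725). Over all tested genes 27.1% passed higher and 32.5% lower. The other 4 genes with the element passed higher: Dnajc3, an ER co-chaperone, by 0.97; Calr, the soluble partner of calnexin, by 0.61; Syvn1, a ubiquitin ligase that clears misfolded ER proteins, by 0.31; and Hsp90b1, the ER form of HSP90, by 0.25 (adjusted p = 0.0323, with 0.0559 to 0.147 in the 8 alternatives in which it did not pass, among them without WT day 1 replicate 4). These 8 genes were chosen for the motif.

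The 9 arrays had similar overall levels. Median log2 values per array lay between 4.14 and 4.28, and pairs of arrays of 1 group correlated at 0.984 to 0.993. Of the tested genes, 4.60% to 5.20% were under log2 4 (not well above background) on WT day 1 arrays and 5.98% to 6.91% on WT sham arrays. The first principal component of the 9 arrays held 78.9% of the variance, with WT day 1 arrays at -54.8 to -30.1 and WT sham arrays at 44.5 to 54.9.

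Markers of the main cell types of the cord were well above background on all 9 arrays, the lowest values being log2 13.96 for Cnp (oligodendrocytes), 8.21 for Syt1 (neurons) and 9.22 for Slc1a3 (astrocytes). Genes of muscle, marrow, meninges and nerve root were also high on some arrays. Acta1, skeletal muscle actin, read 5.97, 10.01, 4.02, 4.08 and 5.15 in WT day 1 cord, against 4.08, 10.75, 4.08 and 10.35 in WT sham cord, so that WT day 1 replicate 2 and WT sham replicates 2 and 4 stood above log2 10. Of 20 tested skeletal muscle genes, 0 passed higher and 1 lower (27.1% and 32.5% over all tested genes). Camp, a granule protein of marrow neutrophil precursors, read 6.47, 6.94, 6.04, 4.62 and 10.54 in WT day 1 cord, against 8.99, 9.90, 6.95 and 8.17 in WT sham cord, with its highest value on WT day 1 replicate 5 and its lowest on WT day 1 replicate 4, and did not pass (difference -1.58, adjusted p = 0.192; without WT day 1 replicate 5 it passed, at -2.48). Foxc1, a transcription factor of the meninges and vessel wall, read 6.99, 7.54, 7.07, 7.04 and 6.68 in WT day 1 cord, against 4.64, 5.34, 7.13 and 5.28 in WT sham cord, high on all WT day 1 arrays but also on WT sham replicate 3 (difference 1.47, adjusted p = 0.00379, and 0.121 without the 3 arrays high in Acta1, called the 3 muscle arrays below). Among 22 tested meningeal genes 11 passed higher and 0 lower, with 6 higher without WT sham replicate 1 and 5 without the 3 muscle arrays. In KO cord, day 1 against sham, 1 of the 22 passed higher and 1 lower (median 0.11). Schwann cell and nerve root genes had 8 higher and 2 lower of 13, and 3 higher and 2 lower in KO cord, day 1 against sham. Among the rises in WT cord was Egr2, the master factor of myelinating Schwann cells (at least 12.6-fold higher). Egr2 is also in the list of Egr, Nr4a and Klf early genes below, so its rise alone does not mark nerve root tissue. Pmp22, a compact myelin protein of nerve, rose by 1.43. In KO cord Pmp22 differed by 0.30 between day 1 and sham and did not pass (adjusted p = 0.401). The part of such tissue in the results below was not tested beyond the values given.

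Hox genes also differed between the groups. They keep their positional pattern in the adult cord, with paralogues 10 and above marking the lumbar and sacral levels. Hoxa10 read 8.30, 8.44, 8.85, 8.36 and 8.71 in WT day 1 cord, against 6.89, 6.89, 4.76 and 5.88 in WT sham cord, a difference of 2.43 ± 0.33 (adjusted p = 5.61e-07). Hoxd10 read 6.80, 4.15, 8.32, 4.54 and 7.63 in WT day 1 cord, against 2.34, 2.43, 2.17 and 2.34 in WT sham cord, below background on every WT sham array and at least 4.88-fold higher at day 1 (adjusted p = 0.00164). Hoxb6, a marker of thoracic and more rostral levels, read 7.45, 7.80, 7.80, 6.32 and 7.56 in WT day 1 cord, against 8.78, 8.94, 8.87 and 8.87 in WT sham cord, a difference of -1.48 ± 0.29 (adjusted p = 9.31e-05). Counts were 3 higher and 0 lower of 3 caudal Hox genes, and 1 higher and 9 lower of 18 rostral ones. In KO cord, day 1 against sham, 0 caudal genes passed, and Hoxa10 differed by -0.07. Of the 18 rostral genes, 0 passed higher and 8 lower in KO cord (median -0.31, against -0.40 in WT cord). Cord level and injury cannot be told apart in the WT arrays where a gene differs along the cord.

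**Figure D1:**
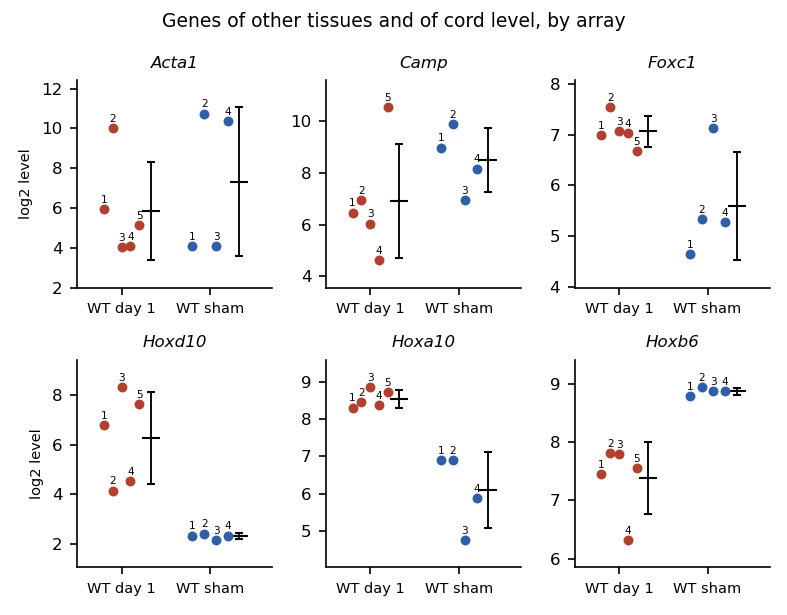
Log2 values of Acta1, Camp, Foxc1, Hoxd10, Hoxa10 and Hoxb6 on each WT day 1 and WT sham array (points, with replicate numbers; bars are mean ± SD). Acta1 splits the arrays by 3 high values that span both groups, whereas Hoxd10, Hoxa10 and Hoxb6 separate the groups completely.

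Most genes that passed differed by less than 2-fold. Of 11993 genes, 3248 passed higher (27.1%) and 3892 lower (32.5%). Groups did not overlap for 2867 genes that were higher (23.9%) and 3516 that were lower (29.3%). The median difference over all tested genes was -0.05. Of the 7140 genes that passed, 3203 (44.9%) differed by less than 0.5, and genes past 2-fold numbered 1000 higher (8.34%) and 487 lower (4.06%). The balance changed with size: below a difference of 1, 2248 genes were higher and 3405 lower, between 1 and 2 the counts were 621 and 457, between 2 and 3 they were 228 and 29, and beyond 3 they were 151 and 1. Because whole cord was measured, fewer cells of a type and less RNA per cell cannot be told apart.

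**Figure D2:**
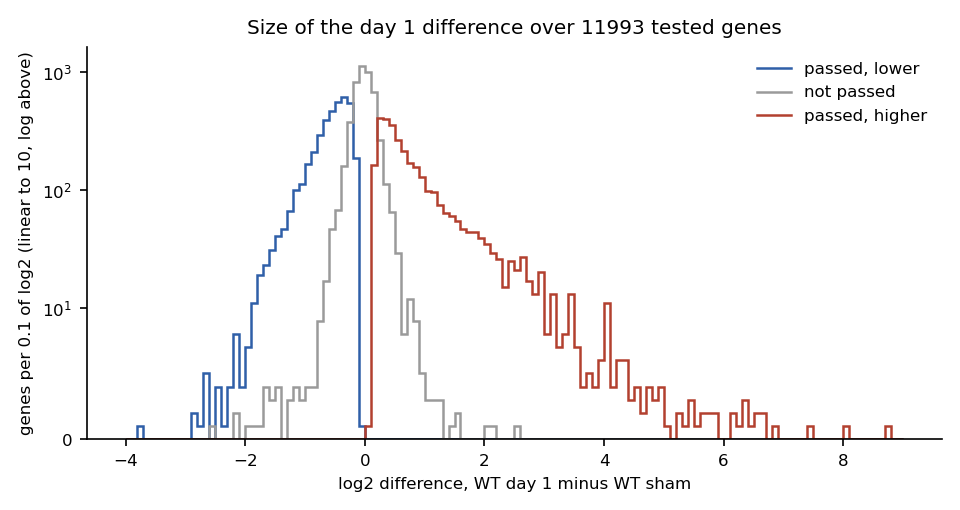
Number of tested genes (vertical axis, linear near 0 and logarithmic above) by log2 difference, WT day 1 minus WT sham (horizontal axis), for genes that passed higher, passed lower or did not pass. Falls outnumber rises at small sizes, and beyond a difference of 3 there are 151 rises and 1 fall.

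Beyond the largest folds, the genes with the smallest p at moderate size had varied roles. Among rises between 1 and 2, Capn2, a calcium-activated protease, differed by 1.22 ± 0.07 (adjusted p = 2.46e-14), and Slc14a1, a urea transporter of astrocytes, by 1.76 ± 0.10 (adjusted p = 4.41e-14). Among falls of that size were Prickle1, a planar polarity protein, at -1.24 ± 0.11 (adjusted p = 1.54e-10), and Tprkb, a subunit of a tRNA-modifying complex, at -1.30 ± 0.09 (adjusted p = 1.27e-12). Under a difference of 1 stood Cnn3, an actin-binding calponin, with 14.29, 14.29, 14.26, 14.38 and 14.22 in WT day 1 cord, against 13.37, 13.23, 13.40 and 13.19 in WT sham cord (difference 0.99 ± 0.05, adjusted p = 1.03e-14). Flot1, a membrane raft scaffold, rose by 0.90, while Aph1b, a gamma-secretase subunit, fell by 0.89, Ccng2, a cyclin of resting cells, fell by 0.86, and Pbx3, a Hox cofactor, fell by 0.76. For 5040 genes (42.0%) the 95% interval lay within 0.5 of no difference. The narrowest intervals among abundant genes included Srp14, part of the signal recognition particle, with a difference of -0.00 (-0.09 to 0.08), Tpt1, a translation-linked tumour protein, with 0.03 (-0.05 to 0.11), and Fth1, ferritin heavy chain, with -0.01 (-0.09 to 0.07).

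Genes for making ribosomes were higher in WT day 1 cord. Of 52 tested ribosome biogenesis factors, 45 passed higher and 0 lower, with a median difference of 0.64. Ebna1bp2, which assembles the large subunit, had 9.74, 9.49, 9.33, 9.68 and 9.44 in WT day 1 cord, against 8.33, 8.36, 8.40 and 8.53 in WT sham cord (difference 1.13 ± 0.09, adjusted p = 4.45e-11). Its groups were separated by more than the width of either. Wdr46, a nucleolar scaffold, rose by 1.29, Nop58, a core protein of the box C/D methylation particles, by 1.09, Tsr1, a small-subunit maturation factor, by 1.00, and Utp20, of the small-subunit processome, by 0.74. Against a 1.5-fold change 14 of the 52 passed, so most of these rises were small. Of 41 ribosomal proteins 38 passed higher and 0 lower (median 0.47). Rplp0, of the ribosomal stalk, had 14.57, 14.48, 14.39, 14.57 and 14.47 in WT day 1 cord, against 13.36, 13.37, 13.44 and 13.49 in WT sham cord (difference 1.08 ± 0.08, adjusted p = 5.57e-12), and every WT day 1 array was above every WT sham array. Rps18, of the small subunit, rose by 1.08, whereas Rps29 differed by 0.05 and did not pass (adjusted p = 0.177).

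**Figure D3:**
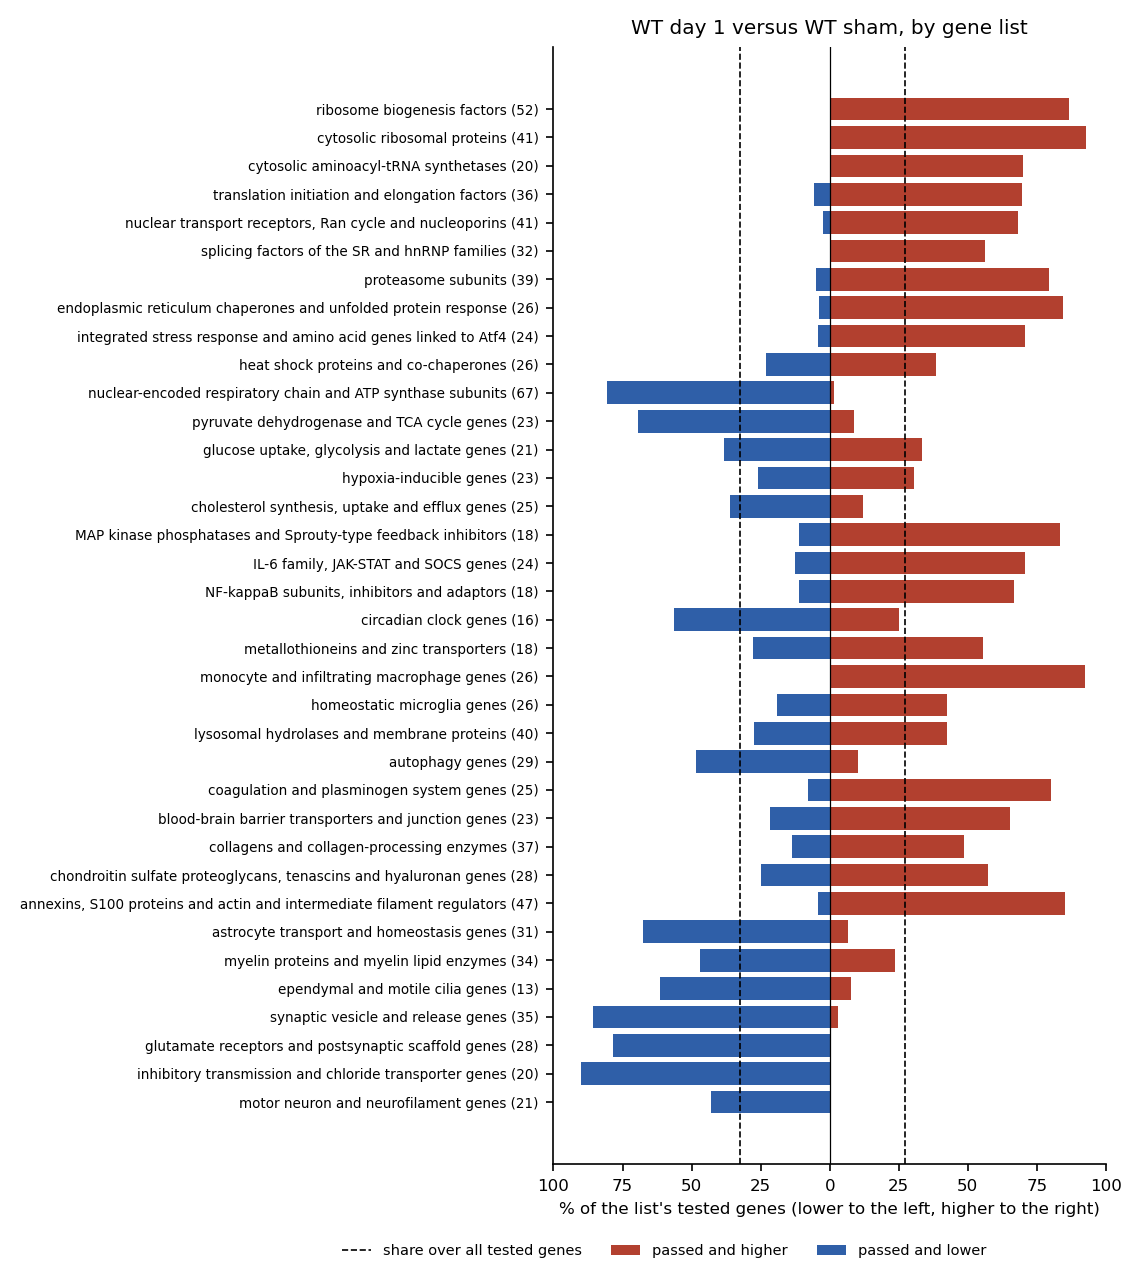
Share of tested genes in each of 36 gene lists that passed higher or lower (percent), WT day 1 against WT sham, with dashed lines at the shares over all tested genes (27.1% higher, 32.5% lower). Ribosome, ER folding, proteasome and cytoskeleton lists lie far above the higher line, and respiratory chain, synaptic and transmitter receptor lists far above the lower line.

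Genes for translation, RNA handling and protein degradation were mostly higher. Translation factors had 25 higher and 2 lower of 36 (median 0.41). Eif4a1, the initiation helicase, rose by 1.17 and Pabpc1, the poly(A)-binding protein, by 1.08, while the paralogue Eif4a2 fell by 0.41 and Eef1a2, the elongation factor form of neurons and muscle, fell by 0.31. Transfer RNA synthetases had 14 higher and 0 lower of 20, among them Iars, for isoleucine (0.88), and Tars, for threonine (0.74). Nuclear transport genes had 28 higher and 1 lower of 41, with rises of 1.36 for Nup93, a pore scaffold, and 1.10 for Ipo5, an importin that carries ribosomal proteins. Splicing factors had 18 higher and 0 lower of 32. Among these Ptbp1, which represses neuronal exons, rose by 1.87 ± 0.14 (adjusted p = 7.13e-12). Of 39 proteasome genes 31 passed higher and 2 lower (median 0.27), from Psma1 and Psma5, of the core ring (0.46 and 0.33), to Psmb8, the interferon-inducible catalytic subunit (2.81).

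The full ER folding list had 22 higher and 1 lower of 26 (median 0.88), with Sec61a1 and Sec61b, of the translocation channel, up by 1.63 and 1.09, Manf, a secreted ER stress protein, by 1.53, and Xbp1, the transcription factor named above, by 0.84. Herpud1, which clears ER proteins and is itself a stress target, was the fall, at -0.22 (adjusted p = 0.00837, and 0.124 without the 3 muscle arrays). Genes of the integrated stress response and its factor ATF4 had 17 higher and 1 lower of 24 (median 0.85). Eif4ebp1, a brake on cap-dependent initiation, rose by 2.92, Slc7a5 and Slc3a2, the 2 chains of the large amino acid transporter, by 0.87 and 0.88, and Aldh18a1, of proline synthesis, by 0.82. Phgdh, the first step of serine synthesis and in cord an astrocyte enzyme, was the fall, at -0.77. Heat shock proteins and co-chaperones, some of them mitochondrial or ER proteins, split, with 10 higher and 6 lower of 26 (median 0.03). The small heat shock protein Hspb8 and its partner Bag3 rose by 1.37 and 0.93, and the chaperonin subunits Cct5 and Cct2 by 0.36 and 0.27. Hspa4l and Dnajb1, partners of HSP70, fell, with differences of -0.65 and -0.25 (for Dnajb1 the mean of all its probe sets did not pass, adjusted p = 0.096).

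Mitochondrial genes were mostly lower, by small amounts. Of 67 tested subunits of the respiratory chain and ATP synthase, 54 passed lower and 1 higher, with a median of -0.24, and none passed against a 1.5-fold change. Ndufs5, of complex I, had 12.11, 12.11, 12.20, 12.10 and 12.23 in WT day 1 cord, against 12.51, 12.59, 12.60 and 12.66 in WT sham cord (difference -0.44 ± 0.06, adjusted p = 6.53e-07). No WT day 1 array reached the lowest WT sham array. Ndufs8, also of complex I, fell by 0.37, Cox7a2, of complex IV, fell by 0.32 and Atp5a1, the ATP synthase alpha chain, fell by 0.34. Atp5g2, of the membrane ring, was the rise (0.28). The citric acid cycle list had 2 higher and 16 lower of 23, with 10 lower when the 3 arrays with muscle RNA were left out (an alternative chosen after seeing the data). Pcx, pyruvate carboxylase of astrocytes, fell by 0.66 and Dlat, of pyruvate dehydrogenase, fell by 0.61. Ppargc1a, the coactivator that drives mitochondrial genes, fell by 0.89.

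Single steps of glycolysis changed in both directions. Hk2, the inducible hexokinase, had 7.84, 7.48, 7.17, 7.43 and 7.11 in WT day 1 cord, against 4.40, 5.04, 4.75 and 4.85 in WT sham cord (difference 2.65 ± 0.29, 6.26-fold, adjusted p = 1.6e-08). The groups were more than 2 log2 units apart. Ldha, the lactate-forming dehydrogenase chain, rose by 1.27, while the other chain Ldhb fell by 0.52. Slc2a1, the glucose transporter of vessels and glia, rose by 0.82, and Pfkfb3 and Pfkfb4, which set the activator of phosphofructokinase, by 0.58 and 1.19. The list as a whole had 7 higher and 8 lower of 21 (33.3% and 38.1%), with 4 lower without the 3 muscle arrays. Hypoxia genes had 7 higher and 6 lower of 23 (30.4% and 26.1%), with 12 higher when only the WT day 1 and WT sham arrays were fitted. Both lists lay near the shares over all tested genes (27.1% and 32.5%). Hif1a, the oxygen-regulated factor, rose by 1.01. In fatty acid handling 8 rose and 4 fell of 26 (30.8% and 15.4%), a share of rises near the 27.1% over all tested genes. Among the rises was Plin2, the lipid droplet coat (2.37). Cholesterol genes had a median near 0 at day 1, 3 higher and 9 lower of 25 with a median of -0.06 (5 lower without WT sham replicate 4 or without the 3 muscle arrays). Abca1, the cholesterol exporter, rose by 0.91, and Apoe, the lipid carrier of astrocytes, fell by 0.75.

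Feedback inhibitors of signalling and early response genes were mostly higher. Feedback inhibitors of the MAP kinase pathway had 15 higher and 2 lower of 18 (median 0.72). Spry2, an inhibitor of receptor tyrosine kinase signalling, had 10.74, 10.58, 10.54, 10.66 and 10.33 in WT day 1 cord, against 8.98, 9.01, 8.89 and 8.77 in WT sham cord (difference 1.65 ± 0.08, 3.15-fold, adjusted p = 9.3e-16). Dusp6 and Dusp5, phosphatases of ERK, rose by 2.05 and 2.69, while Dusp8, a phosphatase of JNK and p38, and Rgs2, which ends G protein signals, both fell, with differences of -0.57 and -0.57. The AP-1 and Myc list had 10 higher and 1 lower of 13, with Fosl2 at 2.61 and Jun at 1.90. The Egr, Nr4a and Klf list had 12 higher and 2 lower of 18, with Klf6, a factor of regenerating axons in fish, at 1.91.

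Cytokine receptors and their adaptors were mostly higher. In the IL-6, JAK and STAT list 17 passed higher and 3 lower of 24: Il6ra, the IL-6 receptor, was at least 5.11-fold higher, and Stat3, the signal carrier of that family, rose by 1.68. The NF-kB list had 12 higher and 2 lower of 18, with the inhibitors Nfkbiz and Nfkbia at 2.50 and 1.14 and the subunit Rela at 0.98. IL-1 and TNF genes had 13 higher and 1 lower of 15, with the receptors Tnfrsf12a, for TWEAK, and Tnfrsf1a, for TNF, at 3.55 and 2.79. Toll-like receptor genes had 12 higher and 1 lower of 14, with the adaptor Myd88 at 1.62. Prostanoid genes had 7 higher and 1 lower of 15, with 4 higher without the 3 muscle arrays.

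Developmental pathways were mixed. TGF-beta and BMP genes had 16 higher and 5 lower of 33 (3 lower without WT sham replicate 1). Smad3, the TGF-beta signal carrier, rose by 1.55 ± 0.08 (adjusted p = 9.61e-16), and Id1, a BMP target, by 2.07. Its relative Id4, of astrocytes and precursors, fell by 1.31, and Bmpr1b, a BMP receptor, fell by 1.03. Wnt and Notch genes had 8 higher and 10 lower of 29, and 13 higher with the mean of the caudal Hox genes as a covariate. Their shares of 27.6% higher and 34.5% lower were near those over all tested genes (27.1% and 32.5%). Jag1, a Notch ligand, rose by 1.22. Hes5, a direct Notch target in glia and precursors, read 2.95, 2.95, 3.000, 3.06 and 3.06 in WT day 1 cord, against 5.20, 4.90, 5.55 and 4.98 in WT sham cord, below background on every WT day 1 array and at least 2.23-fold lower (adjusted p = 1.21e-10). Axin2, a Wnt target, fell by 0.81.

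Genes listed as glucocorticoid-responsive or circadian also differed. Glucocorticoid-responsive genes had 13 higher and 2 lower of 20 (median 1.21), with Per1 at 1.11. The falls were Ddit4, an inhibitor of mTORC1, at -0.92 and Tsc22d3, a glucocorticoid-induced leucine zipper protein, at -0.58 (adjusted p = 0.0241). Without WT day 1 replicate 1 only 1 gene of the list passed lower, and 5 did not pass in either direction in the main fit. Among the rises Nfkbia is also in the NF-kB list. Whether a hormone lay behind these differences was not tested. Circadian genes had 4 higher and 9 lower of 16. Dbp, an output factor of the clock, had 9.45, 10.01, 10.28, 9.78 and 9.72 in WT day 1 cord, against 10.67, 10.86, 11.01 and 11.30 in WT sham cord (difference -1.11 ± 0.22, adjusted p = 0.000127). Its WT day 1 values all lay below WT sham. Hlf, a relative of Dbp, fell by 1.61, and the clock repressors Per3 and Nr1d2 had differences of -1.08 and -0.63, while Bhlhe40 and Nfil3, which oppose the clock activators and Dbp, rose by 1.23 and 1.03. The hour at which cord was taken is not given in the sources used here.

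Metal and redox genes moved in both directions. Zinc and metallothionein genes had 10 higher and 5 lower of 18. The zinc-binding Mt1 and Mt2 rose by 1.05 and 1.34, and the importers Slc39a14 and Slc39a1 by 1.88 and 1.74, while Slc39a12, an importer of brain and cord, fell by 1.28 and the exporter Slc30a1 fell by 0.55 (adjusted p = 0.0531 as the mean of all its probe sets). Iron and heme genes had 14 higher and 6 lower of 26. Slc40a1, the iron exporter ferroportin, had 6.31, 6.32, 6.68, 6.12 and 6.36 in WT day 1 cord, against 7.37, 7.52, 7.30 and 7.14 in WT sham cord (difference -0.98 ± 0.26, adjusted p = 0.00202), with no overlap. Antioxidant genes, many of them targets of NRF2, had 17 higher and 5 lower of 25: Txn1, thioredoxin, rose by 1.08, Srxn1, sulfiredoxin, by 1.13 and Gpx1, glutathione peroxidase, by 1.16. Nqo1, a quinone reductase often used to report NRF2, fell by 0.68, and Gclc, of glutathione synthesis, fell by 0.27.

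Nearly all monocyte genes were higher, while microglial genes were split. Monocyte genes had 24 higher and 0 lower of 26 (median 3.22), and neutrophil genes 8 higher and 0 lower of 19. Marrow granule genes varied within both groups, as Camp shows. With the mean of Camp, Ltf and Ngp as a marrow covariate (also chosen after seeing the data), 15 neutrophil genes passed higher. Those covariate genes are themselves neutrophil granule genes, so that fit cannot separate marrow from neutrophils in the cord. Without the 3 muscle arrays 5 neutrophil genes passed higher, and without WT day 1 replicate 5 there were 3 that passed lower. Of 26 microglial genes 11 passed higher and 5 lower (median 0.04): Siglech, a lectin of microglia, was at least 4.7-fold lower, whereas Tyrobp, a signal adaptor of all myeloid cells, rose by 1.51. Chemokine genes had 11 higher and 1 lower of 14 for CC chemokines and receptors and 9 higher and 1 lower of 11 for the CXC and CX3C set. The falls were Ccl27a (-0.97) and Cx3cl1, the neuronal ligand that microglia sense (-0.85). Colony-stimulating factors and receptors had 9 higher and 1 lower of 13, with Csf1 at 1.24, Kitl at 1.60 and the receptor Kit at -0.55.

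Genes of antigen presentation were mostly higher, and lysosomal genes were split. Class I genes had 14 higher and 0 lower of 16, with H2-D1 at 0.82, and class II genes 7 higher and 2 lower of 9, with Rfx5, an activator of class II genes, at -0.79. Phagocyte and oxidase genes had 20 higher and 1 lower of 24: Mertk, a receptor for dead cells, rose by 1.27, and its relative Tyro3, which neurons carry, fell by 1.04. Complement had 8 higher and 1 lower of 14, with C1qa at 1.14. Lysosomal genes were split, 17 higher and 11 lower of 40 (median 0.09). The cathepsins Ctsc and Ctsl rose by 3.69 and 1.54 and Lamp2, a membrane protein, by 1.14, and Ctsf, cathepsin F, fell by 1.12.

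Genes of clotting, leukocyte adhesion, barrier and vessel growth were mostly higher, beside the 11 meningeal genes described above. Coagulation and fibrinolysis had 20 higher and 2 lower of 25 (median 2.01): Pros1, protein S, rose by 2.26, while the thrombin receptor F2r and Serpini1, the neuronal inhibitor neuroserpin, fell, with differences of -0.58 and -0.72. Adhesion genes had 13 higher and 4 lower of 21. Barrier genes had 15 higher and 5 lower of 23 (2 lower without the 3 muscle arrays). Cav1, the coat of endothelial caveolae, rose by 1.34, and Slco1c1, a thyroid hormone transporter of brain vessels, fell by 0.79 (adjusted p = 0.0928 without the 3 muscle arrays). Angiogenic genes had 18 higher and 5 lower of 29 (10 higher without the 3 muscle arrays), among them the endothelial factors Sox17 and Sox18 (1.62 and 1.68). Ramp2, the adrenomedullin receptor partner, rose by 1.02, and Vegfb fell by 0.68. Pericyte and smooth muscle genes had 7 higher and 1 lower of 18, but 4 higher and 3 lower in KO cord, day 1 against sham.

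More matrix genes passed higher than lower, and parts of the net around neurons were lower. Collagens and their enzymes had 18 higher and 5 lower of 37, with Col12a1 at 1.93 and Plod3, a lysyl hydroxylase, at 1.45. Proteases and inhibitors had 14 higher and 3 lower of 28: Adamts1, which cuts proteoglycans, rose by 3.13, and Timp2 fell by 0.60. Proteoglycans and related genes had 16 higher and 7 lower of 28. Sdc4, a cell surface heparan sulfate carrier, rose by 1.54 and Chst11, which sulfates chondroitin, by 1.19. The perineuronal net parts Bcan, Hapln1 and Tnr fell, with differences of -0.92, -1.51 and -0.46. Integrins and their ligands had 15 higher and 2 lower of 29, with Thbs2 at 2.95 and Sparcl1, a synapse-promoting astrocyte protein, at -0.59.

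Annexins, S100 proteins and regulators of the cytoskeleton were mostly higher, 40 higher and 2 lower of 47 (median 1.14). Plek, a platelet and leukocyte protein, rose by 2.84 and Lgals1, a galectin of reactive cells, by 2.27. S100b, the calcium-binding protein of astrocytes, was among the falls, at -0.43. Apoptosis genes had 12 higher and 3 lower of 24. The survival protein Mcl1 rose by 2.31 and Cflar, which blocks death receptors, by 1.35, while Bmf, a killer of detached cells, fell by 1.01. Replication licensing genes were mostly higher at day 1, 15 higher and 1 lower of 22 (median 0.67), with the helicase subunit Mcm5 at 2.81 and the loader Cdt1 at 2.59.

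Astrocyte homeostasis genes were mostly lower, and myelin genes moved in both directions. Astrocyte homeostasis genes had 2 higher and 21 lower of 31 (median -0.53; 13 lower without the 3 muscle arrays). Gja1, the gap junction protein, fell by 1.05, Slc1a3, a glutamate transporter, fell by 0.75 and Slc6a11, a GABA transporter, fell by 1.29, while Aldh1l1, a folate enzyme used as an astrocyte marker, rose by 0.82. By contrast all 32 tested reactive astrocyte genes passed higher, as did 27.1% of all tested genes. That list was written with earlier results of these data known. Its members Timp1 and Serpina3n are also in the protease and coagulation lists. Which cells these rises came from was not tested. Oligodendrocyte precursor genes had 6 higher and 7 lower of 23 (2 higher without WT sham replicate 2 or without the 3 muscle arrays), with the lineage factor Sox8 at -1.01. The shares of this list (26.1% and 30.4%) were near those over all tested genes (27.1% and 32.5%). Myelin genes had 8 higher and 16 lower of 34 (median -0.19). Gpr37 and Lpar1, receptors of maturing oligodendrocytes, fell, with differences of -0.86 and -1.01 and Cnp, a myelin enzyme, fell by 0.56, while Myrf, the master factor of myelin genes, rose by 0.35 and Cldn11, the tight junction of myelin, by 0.53. Ependymal cilia genes had 1 higher and 8 lower of 13.

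Genes of synaptic release, transmitter receptors and inhibition were mostly lower at day 1. Synaptic vesicle genes had 1 higher and 30 lower of 35 (median -0.58). Syt1, the calcium sensor of release, had 8.88, 9.45, 9.46, 8.21 and 9.69 in WT day 1 cord, against 10.51, 10.61, 10.79 and 10.68 in WT sham cord (difference -1.51 ± 0.29, adjusted p = 9.43e-05). WT day 1 replicate 4 was the lowest, and every WT day 1 array was below WT sham. Without that array 26 synaptic vesicle genes passed lower, and without the 3 muscle arrays 20. Cplx2, a release clamp, fell by 1.13 and Rims2, of the active zone, fell by 1.04, while Syt4, an activity-induced relative of Syt1, rose by 0.48. Glutamate receptor genes had 0 higher and 22 lower of 28 (median -0.75). Inhibitory transmission genes had 0 higher and 18 lower of 20 (12 lower without the 3 muscle arrays), with the GABA-making Gad1 at -1.13, the receptor subunit Gabra4 at -1.28 and the scaffold Gphn at -0.58.

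Channels and neuronal regulators were mostly lower too. Potassium channels had 2 higher and 25 lower of 40, with Kcnk6 as a rise (1.39), and sodium and calcium channels 1 higher and 18 lower of 25, with Scn2b at -1.22 and Cacng5 as the rise (1.16). Neuronal regulators had 2 higher and 20 lower of 27. Rbfox3, the NeuN antigen, fell by 0.86 and Calb1, calbindin, fell by 1.85. Rest, the repressor of neuronal genes, rose by 0.56. Motor neuron and neurofilament genes had 0 higher and 9 lower of 21, with 5 lower without WT day 1 replicate 2, without WT day 1 replicate 4 or without the 3 muscle arrays, and 15 lower with the mean of the caudal Hox genes as a covariate. Axon guidance genes had 8 higher and 28 lower of 52 (5 higher without the 3 muscle arrays), with Robo2, a Slit receptor, at -1.23 and Sema4b at 1.17. Regeneration-associated genes had 19 higher and 10 lower of 37, and here the growth-related L1cam and Stmn1 fell, with differences of -0.80 and -0.79.

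Neuropeptide genes were mostly lower, 3 higher and 15 lower of 24 (median -0.70). Crh, corticotropin-releasing hormone, had 9.23, 9.96, 9.74, 8.96 and 9.37 in WT day 1 cord, against 6.82, 6.16, 6.66 and 6.31 in WT sham cord (difference 2.97 ± 0.27, 7.82-fold, adjusted p = 4.38e-10). All 5 WT day 1 arrays were above log2 8 and all 4 WT sham arrays below 7. Gal, galanin, a peptide that injured neurons make, rose by 0.95. Nts, neurotensin, fell by 1.24, and Nmu, neuromedin U, was at least 4.21-fold lower. Ntrk2, which encodes TrkB, had 10.09, 10.17, 10.44, 9.57 and 10.42 in WT day 1 cord, against 11.09, 11.14, 11.09 and 11.09 in WT sham cord (difference -0.97 ± 0.20, adjusted p = 0.000177). Its probe set was not matched to the part removed in KO mice, so it does not check the KO labels.

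**Figure D4:**
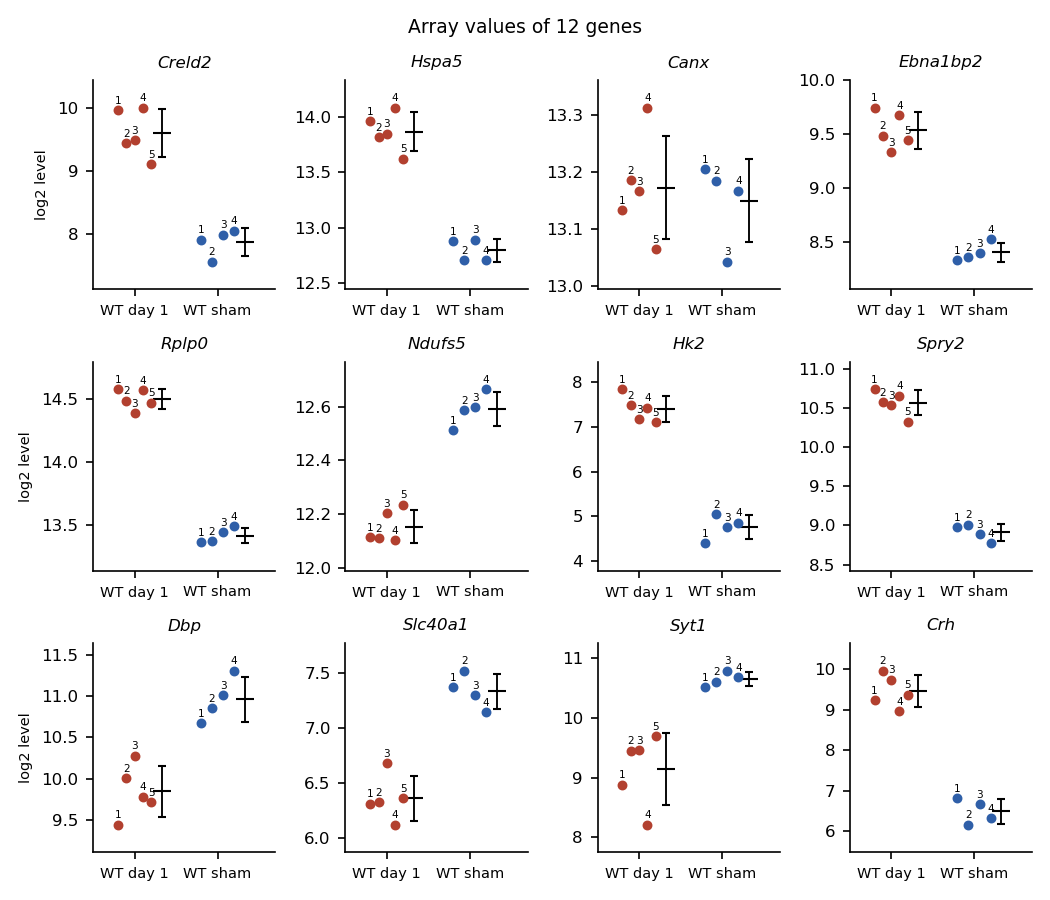
Log2 values on each WT day 1 and WT sham array (points, with replicate numbers; bars are mean ± SD) for Creld2, Hspa5, Canx, Ebna1bp2, Rplp0, Ndufs5, Hk2, Spry2, Dbp, Slc40a1, Syt1 and Crh. Canx is the one gene shown whose groups overlap, and WT day 1 replicate 4 is the lowest of its group for Syt1.

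Several of these lists were lower at days 3 and 7 than at day 1. WT day 3 and WT day 7 were compared with WT day 1, so both comparisons share the day 1 arrays. Day 3 was higher for 1844 genes (15.4%) and lower for 2071 (17.3%), and day 7 for 2475 (20.6%) and 2636 (22.0%). Ribosome biogenesis had 0 higher and 42 lower at day 3 and 0 and 48 at day 7, and the list's medians against sham were 0.64, 0.29 and 0.04 at days 1, 3 and 7. Ebna1bp2 differed from day 1 by -0.68 at day 3 and -1.11 at day 7. MAP kinase feedback genes had 1 higher and 11 lower at day 3, and Spry2 differed by -1.22. ER folding genes passed lower than at day 1 for 9 of 26 at day 3 and 15 at day 7, with medians against sham of 0.88, 0.73 and 0.35. Transfer RNA synthetases were lower at day 3 for 17 of 20, but proteasome genes for 4 of 39 at day 3 and 33 at day 7.

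Cholesterol, microglial and lysosomal genes moved further after day 1. Cholesterol genes were lower at day 3 than at day 1 for 17 of 25 and at day 7 for 20, with medians against sham of -0.06, -0.87 and -1.31. Fdps, which makes farnesyl diphosphate, differed from day 1 by -1.38 and -2.05. Microglial genes were higher at day 3 for 23 of 26, with medians of 0.04, 1.24 and 2.17, and C1qa rose by 1.80 over day 1. Lysosomal genes were higher for 29 of 40, with medians of 0.09, 0.83 and 1.31. Slc40a1 was higher at day 3 than at day 1 by 1.83. The rises with the smallest p at day 3 included Ccnb2, a mitotic cyclin (4.50), and Cenpa, the centromeric histone (4.23). Synaptic vesicle genes were lower again at day 3 for 10, with medians of -0.58, -1.03 and -0.88, and the respiratory chain held medians of -0.24, -0.33 and -0.32.

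**Figure D5:**
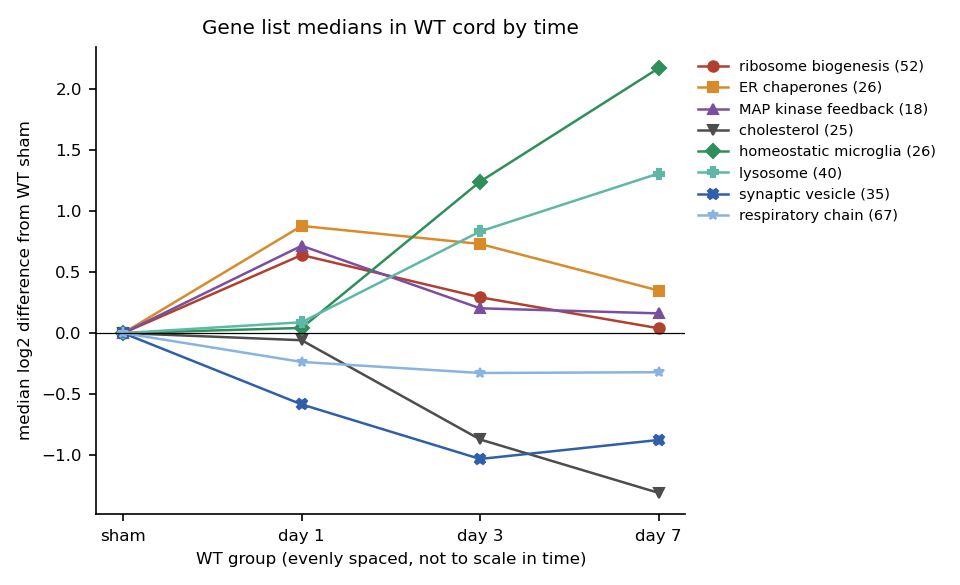
Median log2 difference against WT sham of selected gene lists, with sham itself at 0, then 1, 3 and 7 days after injury (horizontal axis evenly spaced, not to scale). Ribosome biogenesis, ER folding and MAP kinase feedback each have their highest median at day 1, while microglial and lysosomal medians are near 0 at day 1 and above 1 by day 7.

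The KO arrays give the same contrast in other libraries. Muscle RNA differed between these KO groups. Of 20 tested skeletal muscle genes, 0 passed higher and 16 lower at KO day 1 against KO sham (median -4.29). The part of this in the KO counts below was not tested. KO day 1 against KO sham passed higher for 2846 genes (23.7%) and lower for 3278 (27.3%). Ribosome biogenesis had 46 higher and 0 lower, ribosomal proteins 39 and 0, ER folding 21 and 0, and the respiratory chain 1 and 39. Creld2 differed by 1.75, Hspa5 by 1.03, Ebna1bp2 by 1.00, Spry2 by 1.21, Hk2 by 1.74, Crh by 3.37 and Dbp by -1.94. Synaptic vesicle genes had 15 lower in KO cord against 30 in WT cord, and Syt1 differed by -0.92 in KO cord (adjusted p = 0.0155) and -1.51 in WT cord. That difference between genotypes did not pass for Syt1 (adjusted p = 0.924), and it was not tested for the list. The genotype difference in the response itself passed in limma for 0 genes with a higher and 17 with a lower KO response (0.142%), against 307 and 453 at an unadjusted p under 0.05. Of the 17, Galm, Hoxa10, Npl and Slc39a8 lie outside the genes of DNA replication and mitosis that make up the rest. Cdca5, which protects sister chromatid cohesion, differed by 0.18 in KO cord and 2.56 in WT cord, a difference of -2.38 (adjusted p = 0.00029). Slc39a8, a zinc and manganese importer, differed by -0.46 in KO cord and 1.04 in WT cord, a difference of -1.50 (adjusted p = 0.00196).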

How the data were processed

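RNA from mouse spinal cord, extracted with Trizol and labelled as biotinylated cRNA from 1 ug per the labels' protocols, was measured on Affymetrix arrays. The deposited values are log2 intensities that the authors summarised with GCRMA, per the submitters' processing notes; its version is not given in the sources used here. No array pair held identical values, and the number of arrays limits the precision.

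Probe sets (45101, of which 64 were controls) were named by the platform annotation and updated through Entrez IDs for 34741. Of the rest, 932 with several symbols and 9160 with none were left out. One probe set per gene was kept, that with the highest mean over all 34 arrays, and the test covered the 11993 of 18193 genes that exceeded log2 4 on 4 or more arrays. A gene that passes this filter only in its high group had to differ, so counts describe tested genes only. A model with 8 group means was fitted in limma 3.58.1 (R 4.3.3), with lmFit, eBayes and Benjamini-Hochberg adjustment. Where the lower of WT day 1 and WT sham has an array under log2 4, a bound ("at least N-fold") is given. It is taken against the higher of log2 4 and the measured value. The WT differences printed beside a genotype difference carry no bound. In simulated data for WT day 1 against WT sham, 200 of the 11993 genes were changed, with independent noise for each gene. There, 90% of genes changed by 1 and 54% of those changed by 0.5 (log2) were recovered, with 10 false calls. In the real data 7140 genes passed, and RNA of other tissues that shifts many genes together was not simulated. These rates therefore do not carry over to the real comparison.

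The groups, the 84 gene lists (2327 distinct entries, 2126 on the array, 1848 tested) and the tests were chosen with earlier results of these data known. Named genes are, per list, up to 5 rises and 5 falls with the smallest p, or the 2 smallest where fewer than 2 passed, and every member of lists with at most 12 tested genes. Added to these are the 10 rises and falls with the smallest p at sizes of 1 to 2 and under 1, the 10 genes with the largest spread over WT day 1 arrays, the 10 steadiest abundant genes, the 10 with the smallest p between day 3 and day 1 in each direction, and up to 10 for the genotype difference. Bub1, Cdca8, Galm, Hells, Npl, Ntrk2 and the 8 ER folding genes with an ERSE were chosen after their values were seen. Alternatives changed the arrays in the fit, left out arrays, added the replicate number as a block, and varied the filter, the floor, the probe set, the scaling, the spread model, the size of difference tested and covariates. Replicate numbers were not used to pair the samples. Deviations of same-numbered WT day 1 and WT sham arrays correlated at -0.003, 0.374, 0.088 and -0.029, and those of differently numbered arrays at -0.389 to 0.224. The highest value joins the replicate 2 arrays, both of them high in Acta1, so these correlations cannot decide whether the numbers pair samples.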

Additional observations from a re-analysis of the deposited data

Results flagged for a closer look

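For 241 of the genes named, 482 groups of arrays were checked for a single value far from the others of its group. Of these, 18 were marked (3.73%), where chance marks about 1 in 20. WT day 1 replicate 1 stood apart in Adk (11.53, others 12.02 to 12.19). WT day 1 replicate 3 stood apart in Siglech (3.18, others 3.94 to 4.23) and Slc39a14 (8.27, others 8.55 to 8.66). WT day 1 replicate 4 stood apart in Cdca8 (6.56, others 5.46 to 5.67), Hoxb6 (6.32, others 7.45 to 7.80), Slc2a1 (13.23, others 12.98 to 13.05) and Xbp1 (11.96, others 11.81 to 11.85). WT day 1 replicate 5 stood apart in Gclc (9.85, others 9.68 to 9.71). WT sham replicate 1 stood apart in Plod3 (4.81, others 5.05 to 5.08). WT sham replicate 2 stood apart in Gpr37 (11.64, others 11.77 to 11.79), Nr1d2 (12.58, others 12.52 to 12.53) and Ntrk2 (11.14, others 11.09 to 11.09). WT sham replicate 3 stood apart in Cflar (7.44, others 6.91 to 7.00), Ctsl (11.67, others 11.34 to 11.35) and Ect2 (3.69, others 3.86 to 3.86). WT sham replicate 4 stood apart in Cox7a2 (13.92, others 13.75 to 13.77), Lamp2 (11.76, others 11.53 to 11.57) and Slc2a1 (12.16, others 12.28 to 12.28).

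The day 1 response differed between genotypes for 17 genes, by a test of the difference itself over all genes (limma), and was lower in KO cord for each of them. Genes of DNA replication and its supply were Hells (-1.36, adjusted p = 0.0496), Pclaf (-2.11, adjusted p = 0.012), Rrm2 (-1.88, adjusted p = 0.0389) and Top2a (-2.62, adjusted p = 0.00103). Cell cycle kinases and their partners were Bub1 (-2.12, adjusted p = 0.0144), Ccna2 (-2.04, adjusted p = 0.00269), Cdk1 (-1.86, adjusted p = 0.00187) and Pbk (-2.71, adjusted p = 0.00196). Genes of chromosome cohesion, segregation and cell division were Cdca5 (-2.38, adjusted p = 0.00029), Cdca8 (-1.73, adjusted p = 0.0389), Cep55 (-2.32, adjusted p = 0.000633), Ect2 (-1.71, adjusted p = 0.00772) and Shcbp1 (-1.82, adjusted p = 0.00987). Outside the cell cycle were Galm (-1.49, adjusted p = 0.0477), Hoxa10 (-2.50, adjusted p = 0.0141), Npl (-1.10, adjusted p = 0.014) and Slc39a8 (-1.50, adjusted p = 0.00196). Top2a, the topoisomerase of dividing cells, differed by 0.17 in KO cord (day 1 minus sham) and by 2.79 in WT cord. Npl, a sialic acid lyase, differed by 1.36 in KO cord (day 1 minus sham) and by 2.46 in WT cord. Galm, a sugar mutarotase, differed by -1.50 in KO cord (day 1 minus sham) and by -0.01 in WT cord. Hoxa10 marks the level of the cord, and the values of the WT arrays for it are given above.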

How the results depend on the processing

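Named genes checked in the alternatives included 229 that passed between WT day 1 and WT sham. Of these, 227 passed with the same direction in each of the 9 fits that left out 1 WT day 1 or WT sham array. The exceptions were Hsp90b1 and Ccnb2, which is reported above only between day 3 and day 1. Leaving out 1 array gave 2959 to 3231 genes higher and 3558 to 3875 lower for WT day 1 against WT sham (959 to 1045 and 386 to 559 past 2-fold). The counts were 1591 to 2046 and 1678 to 2020 for WT day 3 against WT day 1, and 2174 to 2376 and 2208 to 2574 for WT day 7 against WT day 1. For KO day 1 against KO sham they were 2520 to 2837 and 2466 to 3294. The array left out belonged to the groups compared, except in some fits. The KO range also covers fits without 1 WT day 1 array, and the range for WT day 1 against WT sham the fit without KO sham replicate 2. The genotype difference gave 0 to 3 higher and 13 to 25 lower, with 3 higher without WT day 1 replicate 5 or without KO sham replicate 2, and 6 higher with values under log2 4 set to 4. Against a 1.5-fold change, by construction a stricter question, 913 genes passed higher and 281 lower (268 past 2-fold). Of the 229 checked genes, 96 no longer passed. When the mean of the caudal Hox genes was added as a covariate, 1294 genes were lower past 2-fold and Hoxd10, one of the Hox genes behind that mean, reversed to -1.36. The cause of the first was not tested. Without the 3 arrays with muscle RNA, which leaves fewer samples and was chosen after seeing the data, Foxc1 (adjusted p = 0.121), Herpud1 (0.124) and Slco1c1 (0.0928) no longer passed. Dnajb1 (adjusted p = 0.096) and Slc30a1 (0.0531) did not pass as the mean of all their probe sets. The covariates for muscle, marrow and meningeal genes were also chosen after seeing the data.

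The replicate numbers were not used to pair the samples in the main fit. With the number as a block, 3267 genes were higher and 4013 lower at WT day 1, and the genotype difference gave 2 higher and 21 lower. Values under log2 4 limit what can be said of dim genes, and bounds are given only where WT day 1 is compared with WT sham. Differences between days, between genotypes and within KO cord carry no bound. Among genes given so are Ect2, at 3.69 to 3.86 in WT sham cord, and Ccnb2. With values under log2 4 set to 4, Ccnb2 differed by 0.13 between WT day 1 and WT sham.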

Other observations

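Nucleotide synthesis genes were mostly higher, and the polyamine and p53 lists moved in both directions. Nucleotide synthesis genes had 15 higher and 2 lower of 26 in WT day 1 cord (median 0.29), with Nme2, a nucleoside diphosphate kinase, up by 1.07, Rrm1, of ribonucleotide reductase, by 0.80, and Ctps, which makes CTP, by 0.49. Polyamine and arginine genes had 9 higher and 6 lower of 17. Odc1, the rate-limiting enzyme of polyamine synthesis, rose by 1.16, Srm, spermidine synthase, by 0.96, and Sat1, which starts polyamine breakdown, by 0.84, while Gamt, of creatine synthesis, fell by 1.45. Without the 3 muscle arrays 3 polyamine genes passed lower. Targets of p53 and genes of the DNA damage response had 13 higher and 6 lower of 27: Gadd45a, a growth arrest protein, rose by 1.57, and the DNA repair genes Ddb2 and Xpc had differences of -0.59 and -0.52. Without the 3 muscle arrays 3 genes of this list passed lower, and Xpc did not pass when only the WT day 1 and WT sham arrays were fitted (adjusted p = 0.0534).

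Autophagy genes had 3 higher and 14 lower of 29, with 8 lower without the 3 muscle arrays. Atg14, a subunit of the kinase that starts autophagosomes, fell by 0.64, and Gabarapl2, which coats them, fell by 0.44. Genes of lytic cell death had 7 higher and 3 lower of 14, with Ninj1, which ruptures the membrane of dying cells, up by 0.69, and Gpx4, which blocks ferroptosis, with a difference of -0.25. Genes that sense and clear nucleotides had 4 higher and 4 lower of 15 (26.7% each, near the 27.1% and 32.5% over all tested genes). P2ry6, a UDP receptor of phagocytes, read 6.58, 6.58, 5.78, 6.52 and 5.96 in WT day 1 cord, against 2.58, 2.84, 3.52 and 2.95 in WT sham cord, at least 4.87-fold higher (adjusted p = 3.57e-14). Nt5e, which makes adenosine, rose by 1.37, Entpd2, which cuts ATP, fell by 1.27, and Adk, the astrocyte enzyme that removes adenosine, fell by 0.61.

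The genes with the largest spread over the 5 WT day 1 arrays were muscle genes, Camp and a bone pair. Mmp13, a collagenase of cartilage and bone, read 2.30, 6.22, 2.39, 2.30 and 8.13 in WT day 1 cord, against 2.30, 6.64, 2.30 and 6.53 in WT sham cord, and Ibsp, bone sialoprotein, read 2.17, 5.93, 2.94, 2.17 and 8.28 in WT day 1 cord, against 2.17, 5.90, 2.17 and 5.10 in WT sham cord. Both were above log2 5 on WT day 1 replicates 2 and 5 and on WT sham replicates 2 and 4, and neither passed (adjusted p = 0.916 for Mmp13 and 0.768 for Ibsp).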
